A study of Mus musculus with 12 samples.

Results

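The Polycomb complex subunits form a list of 32 genes whose products make up Polycomb repressive complexes 1 and 2 (PRC1 and PRC2). Members were taken where the array carries a probe set annotated to that gene alone, with the highest-mean probe set used for each gene. This gave 31 of the 32 members among 19938 genes measured in the same way, and all 31 passed the filter on dim genes that left 12988 genes for testing. Cbx6 lies only on a probe set annotated to several genes and has no value here.

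The cells were R1 mouse embryonic stem cells (ESCs), grown on mitomycin-treated mouse embryonic fibroblast feeders with leukemia inhibitory factor. They carried either a Smarcd1 knockdown (lines KD1 and KD2) or a scrambled control infection, and the treatment protocol calls them clones. The Smarcd1 protein, BAF60A, belongs to the BAF chromatin remodellers, which often act against Polycomb. RNA was hybridised to Affymetrix arrays, 12 in all, from 5 groups: KD1 cells after retinoic acid (RA KD1, 4 arrays), scrambled cells after retinoic acid (RA scrambled, 2 arrays), and undifferentiated ESC KD2, ESC KD1 and ESC scrambled cells (2 arrays each). The retinoic acid groups were differentiated for 4 days with 1 µM retinoic acid and without leukemia inhibitory factor. Replicates are labelled biological, but the labels do not say whether 1 or several clones stand behind a line, so the p-values cover the spread between these arrays.

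PRC2 places methyl groups on lysine 27 of histone H3 through its catalytic subunit EZH2 or EZH1, with EED and SUZ12 as the obligate core. PRC1 attaches ubiquitin to histone H2A through RING1 or RNF2 (RING1B), and each PRC1 assembly is defined by 1 of the 6 PCGF proteins. Canonical PRC1 carries a CBX protein that reads the PRC2 mark and a PHC protein that can polymerise, while variant PRC1 carries RYBP or YAF2 in place of CBX. In ESCs these complexes hold developmental regulators silent, and several subunits have paralogs that are used in different cell types.

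Values are deposited log2 probe set summaries, so a difference of 1 is a doubling of signal, and each change below is given as a log2 difference ± SE. A change was called when its adjusted p in limma, over all tested genes in a comparison, was under 0.05. Smarcd1 read 6.36, 6.61, 6.50 and 6.44 on the RA KD1 arrays, against 8.84 and 8.64 on the RA scrambled arrays (-2.26 ± 0.28, adjusted p = 0.000152). In undifferentiated cells it read 7.75 and 7.78 on the ESC KD1 arrays, against 8.67 and 8.68 on the ESC scrambled arrays. Neither this difference (-0.91 ± 0.33, adjusted p = 0.23) nor that of ESC KD2 from ESC scrambled (-0.81 ± 0.33, adjusted p = 0.152) was called. The 2 arrays labelled ESC KD2 read 8.56 and 7.16, so the array labelled ESC KD2 replicate 1 lay close to the scrambled ones and does not bear out its label. Those 2 arrays also correlated with each other at only 0.941 over all genes, against 0.989 to 0.993 within the other groups, and they enter the pooled spread of every test. Members whose call changes without them are named in each comparison, while the counts for other gene lists use all 12 arrays. Of the 12 ESC markers tested, 10 fell after retinoic acid in KD1 cells and 11 fell in scrambled cells, where the remaining one, Tbx3, rose. All 11 retinoic acid response genes tested rose in scrambled cells and 10 in KD1 cells. Over all tested genes, 21.4% fell and 29.4% rose in KD1 cells, and 16.7% fell and 22.4% rose in scrambled cells. A marker dim in 1 state, such as Nr2f1 (3.81 to 3.82 on the ESC scrambled arrays), could pass the filter on dim genes only through the other. These marker counts therefore describe and carry no support.

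The start regions of 3 members that changed strongly, Bmi1, Phc1 and Pcgf5, are shown first because CpG-rich DNA is what the variant PRC1 subunit KDM2B binds. Each is the 250 bases before an annotated start, from RefSeq on GRCm38.p6, read 5′ to 3′ on the gene's strand, with every CpG in capitals.
Bmi1, chr2:18676768-18677017, plus strand: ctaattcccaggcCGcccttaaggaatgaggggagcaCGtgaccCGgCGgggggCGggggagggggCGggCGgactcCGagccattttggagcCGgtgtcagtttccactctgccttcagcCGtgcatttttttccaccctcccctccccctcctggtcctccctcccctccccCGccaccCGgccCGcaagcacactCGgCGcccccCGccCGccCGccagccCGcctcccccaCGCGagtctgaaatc
Phc1, chr6:122340228-122340477, minus strand: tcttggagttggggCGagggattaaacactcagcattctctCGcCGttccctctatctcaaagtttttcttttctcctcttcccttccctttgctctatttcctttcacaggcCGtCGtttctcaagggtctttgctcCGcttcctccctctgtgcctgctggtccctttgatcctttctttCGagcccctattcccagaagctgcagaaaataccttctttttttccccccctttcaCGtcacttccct
Pcgf5, first start, chr19:36348079-36348328, plus strand: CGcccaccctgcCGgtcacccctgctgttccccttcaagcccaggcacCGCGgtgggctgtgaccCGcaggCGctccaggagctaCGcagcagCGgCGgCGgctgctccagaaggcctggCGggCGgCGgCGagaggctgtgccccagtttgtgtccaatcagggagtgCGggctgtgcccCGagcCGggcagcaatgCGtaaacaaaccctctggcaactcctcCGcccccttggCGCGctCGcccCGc
Pcgf5, middle start, chr19:36378817-36379066, plus strand: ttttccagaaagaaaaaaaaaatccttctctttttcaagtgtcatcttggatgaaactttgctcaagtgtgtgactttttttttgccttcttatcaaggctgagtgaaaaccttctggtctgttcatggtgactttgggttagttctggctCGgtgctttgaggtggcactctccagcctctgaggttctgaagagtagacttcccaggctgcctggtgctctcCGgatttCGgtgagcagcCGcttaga
Pcgf5, last start, chr19:36409498-36409747, plus strand: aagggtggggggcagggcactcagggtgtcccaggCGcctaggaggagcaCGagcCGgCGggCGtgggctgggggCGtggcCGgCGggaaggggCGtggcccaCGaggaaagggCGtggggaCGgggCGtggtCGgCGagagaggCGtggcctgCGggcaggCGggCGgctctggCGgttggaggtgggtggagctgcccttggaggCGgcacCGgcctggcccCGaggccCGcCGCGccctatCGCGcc

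The Bmi1 window holds 21 CpG, the Phc1 window 8, and the Pcgf5 windows 23, 4 and 28. Of the 31 measured members 27 were in the promoter table, with 40 windows in all, and these had a median of 20.5 CpG (range 0 to 45), against a median of 6 over all 32851 windows. The median GC content was 64.8% in the members' windows, against 52.4% over all windows. On either strand, the E-box CACGTG was found in 6 of the 40 windows (15.0%, against 6.02% of all windows), those of Bmi1, Cbx8, Pcgf2, Phc2, Phc3 and Rbbp4. The E2F core letters TTCCCGC were found in 4 windows (10.0%, against 3.82%), of Pcgf5, Phf19, Scmh1 and Suz12, and the retinoic acid receptor hexamer AGGTCA in 4 (10.0%, against 14.0%), of Pcgf2, Phc2, Phc3 and Phf1. The octamer ATGCAAAT was in 1 window, of Phc2 (2.5%, against 1.6%). CACGTG and TTCCCGC each hold a CpG, and the members' windows are richer in CpG than all windows. The part of this in the motif shares was not tested, and some members have several windows. The array does not tell which start was used, and a match to these letters is a description of the DNA only.

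Retinoic acid differentiation changed most of the Polycomb transcripts, in both directions. In KD1 cells 20 of the 31 members were called (11 higher and 9 lower), where 50.8% of all tested genes were called, 29.4% higher and 21.4% lower. In scrambled cells 19 were called (11 higher and 8 lower), where 39.1% of all genes were, 22.4% higher and 16.7% lower. The median change of the members was 0.12 in KD1 cells and 0.17 in scrambled cells, against 0.06 over all tested genes in each. No array is shared by these comparisons, but both use the same pooled spread of each gene, so their calls are not independent. With the same direction, 16 members were called in both, which is 80.0% of those called in KD1 cells and 84.2% of those called in scrambled cells. Over all genes 30.0% were called in both with the same direction, which is 59.0% of those called in KD1 cells and 76.7% of those called in scrambled cells. The sign of the change was the same for 28 of the 31 members (90.3%, against 79.9% of all genes), and the exceptions, Phf1, Cbx7 and Pcgf1, were called in neither comparison. Over the 31 members the changes in KD1 and scrambled cells had a Pearson correlation of 0.849, and over all 12988 genes one of 0.784.

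**Figure D1:**
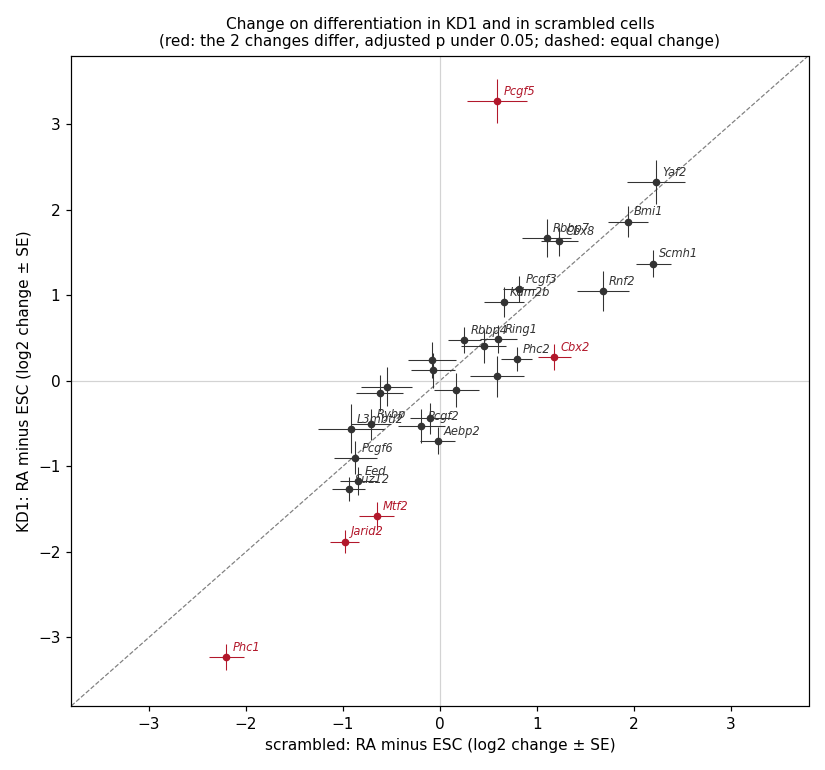
Change on retinoic acid differentiation of the 31 members in KD1 cells (y axis, log2, RA KD1 minus ESC KD1) and in scrambled cells (x axis, log2, RA scrambled minus ESC scrambled); bars are SE, the dashed line marks equal change, members called in either comparison are named, and the 5 whose changes differ between the lines are red. Most points lie along the dashed line, and Pcgf5 stands far above it at 3.27 in KD1 cells and 0.59 in scrambled cells.

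Without both ESC KD2 arrays, which lie in neither comparison but enter the pooled spread, the estimates were the same and 24 members were called in each comparison. The 20 and 19 called with them were all among these. The added calls were Cbx2, L3mbtl2, Phc3 and Phf19 in KD1 cells, where 64.0% of all genes were then called, and Bcor, Ezh1, Ezh2, Pcgf5 and Phc3 in scrambled cells, where 54.5% were. RNA came from whole cultures, so fewer cells of a type and less RNA per cell cannot be told apart. Beside these changes, the mean log2 level of 20 extraembryonic endoderm markers was 9.42 to 9.91 on the RA KD1 arrays, against 6.76 to 6.87 on the ESC KD1 arrays, and 7.21 to 7.27 on the RA scrambled arrays, against 6.10 to 6.11 on the ESC scrambled arrays. The mean of 19 fibroblast and feeder markers was 6.28 to 6.65 on the RA KD1 arrays, against 5.83 to 6.49 on the ESC KD1 arrays, and 7.17 to 7.47 on the RA scrambled arrays, against 6.71 to 6.74 on the ESC scrambled arrays, and their part in the results was not tested.

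Within the PRC2 core, Eed and Suz12 fell together on differentiation while neither catalytic subunit was called. Suz12, the scaffold of the complex, read 8.98, 9.18, 8.88 and 8.86 on the RA KD1 arrays, against 10.24 and 10.24 on the ESC KD1 arrays (-1.27 ± 0.14, adjusted p = 2.41e-05). In scrambled cells it read 9.09 and 8.91 after retinoic acid, against 10.03 and 9.86 in ESCs (-0.94 ± 0.17, adjusted p = 0.000951). Every RA array lay below every ESC array of the same line. RA and ESC arrays did not overlap for 74.2% of all tested genes in KD1 cells and 77.1% in scrambled cells. Eed, which reads trimethylated lysine 27 and stimulates the enzyme, read 8.38, 8.29, 8.44 and 8.43 on the RA KD1 arrays, against 9.63 and 9.48 on the ESC KD1 arrays (-1.17 ± 0.16, adjusted p = 9.85e-05). It read 8.52 and 8.28 on the RA scrambled arrays, against 9.50 and 8.98 on the ESC scrambled arrays (-0.84 ± 0.19, adjusted p = 0.00396). The second, dim Eed probe set also had lower means after retinoic acid in both lines.

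Ezh2, the main methyltransferase of proliferating cells, read 9.50, 9.66, 9.60 and 9.66 on the RA KD1 arrays, against 9.64 and 9.47 on the ESC KD1 arrays, and these overlapped. In scrambled cells Ezh2 read 10.35 and 10.24 after retinoic acid, against 9.68 and 9.73 in ESCs, a difference of 0.59 ± 0.28 (95% interval -0.03 to 1.21, adjusted p = 0.124) that was called only without the ESC KD2 arrays (adjusted p = 0.0013). Its paralog Ezh1, the enzyme more typical of resting cells, read 6.68, 6.90, 7.22 and 6.94 on the RA KD1 arrays, against 6.93 and 7.07 on the ESC KD1 arrays. Ezh1 read 6.62 and 6.60 on the RA scrambled arrays, against 7.26 and 7.06 on the ESC scrambled arrays (-0.55 ± 0.26, adjusted p = 0.127, and 0.0146 without the ESC KD2 arrays). With the ESC KD2 arrays left out, Ezh2 was thus called higher and Ezh1 lower in scrambled cells, and neither was called in KD1 cells.

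Rbbp7, a histone-binding subunit, rose in both lines. Its values were 11.93, 12.05, 11.88 and 11.81 on the RA KD1 arrays, against 10.25 and 10.24 on the ESC KD1 arrays (1.67 ± 0.22, adjusted p = 6.11e-05). In scrambled cells Rbbp7 read 11.36 and 11.41 after retinoic acid, against 10.31 and 10.27 in ESCs (1.10 ± 0.25, adjusted p = 0.00447), and its second probe set rose by similar amounts, 1.72 in KD1 cells and 1.01 in scrambled cells. Rbbp4, its close paralog, read 9.39, 9.49, 9.32 and 9.42 on the RA KD1 arrays, against 8.85 and 9.0 on the ESC KD1 arrays (0.48 ± 0.15, adjusted p = 0.0172). That call was lost when ESC KD1 replicate 1 (adjusted p = 0.134) or replicate 2 (0.0543) was left out. The scrambled arrays of Rbbp4 read 9.63 and 9.18 after retinoic acid, against 9.07 and 9.23 in ESCs, and overlapped. Both genes also serve other chromatin complexes.

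Jarid2 and Mtf2, accessory subunits that guide PRC2 to DNA, fell in both lines. Jarid2, a DNA-binding partner needed for normal ESC differentiation, read 8.79, 8.66, 8.77 and 8.88 on the RA KD1 arrays, against 10.71 and 10.60 on the ESC KD1 arrays (-1.88 ± 0.13, adjusted p = 6.24e-07). The scrambled arrays of Jarid2 read 9.29 and 9.47 after retinoic acid, against 10.42 and 10.29 in ESCs (-0.98 ± 0.15, adjusted p = 0.000373). Differentiated and undifferentiated arrays did not overlap in either line, as for most tested genes, and the RA KD1 arrays were the lowest of all. Mtf2 (PCL2), the Polycomb-like subunit known from ESCs, read 9.25, 9.20, 9.22 and 9.21 on the RA KD1 arrays, against 10.84 and 10.76 on the ESC KD1 arrays (-1.58 ± 0.16, adjusted p = 1.02e-05). Its scrambled values were 10.02 and 9.73 after retinoic acid, against 10.75 and 10.29 in ESCs (-0.65 ± 0.18, adjusted p = 0.0158), a call lost without ESC scrambled replicate 1 (adjusted p = 0.16) or RA scrambled replicate 2 (0.131).

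The other Polycomb-like paralogs did not replace Mtf2 by a called rise. Phf1 (PCL1) read 6.88, 6.97, 7.06 and 6.94 on the RA KD1 arrays, against 6.89 and 6.57 on the ESC KD1 arrays, and 6.35 and 6.45 on the RA scrambled arrays, against 6.50 and 6.46 on the ESC scrambled arrays. Phf19 (PCL3) read 4.65, 4.34, 4.66 and 4.68 on the RA KD1 arrays, against 5.12 and 4.92 on the ESC KD1 arrays (-0.44 with an adjusted p of 0.0214 without the ESC KD2 arrays, not called with them), and 4.67 and 5.10 on the RA scrambled arrays, against 4.90 and 5.05 on the ESC scrambled arrays. These values are near the array medians of 4.73 to 5.09. Aebp2, a zinc finger cofactor of PRC2, read 7.93, 8.0, 7.92 and 8.0 on the RA KD1 arrays, against 8.66 and 8.67 on the ESC KD1 arrays (-0.70 ± 0.16, adjusted p = 0.00295). On the scrambled arrays Aebp2 read 7.94 and 8.05 after retinoic acid, against 7.92 and 8.10 in ESCs, and these overlapped. The ESC KD1 pair was high, as were the arrays labelled ESC KD2 (8.78 and 8.21), while both differentiated groups lay within the range of the ESC scrambled arrays.

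**Figure D2:**
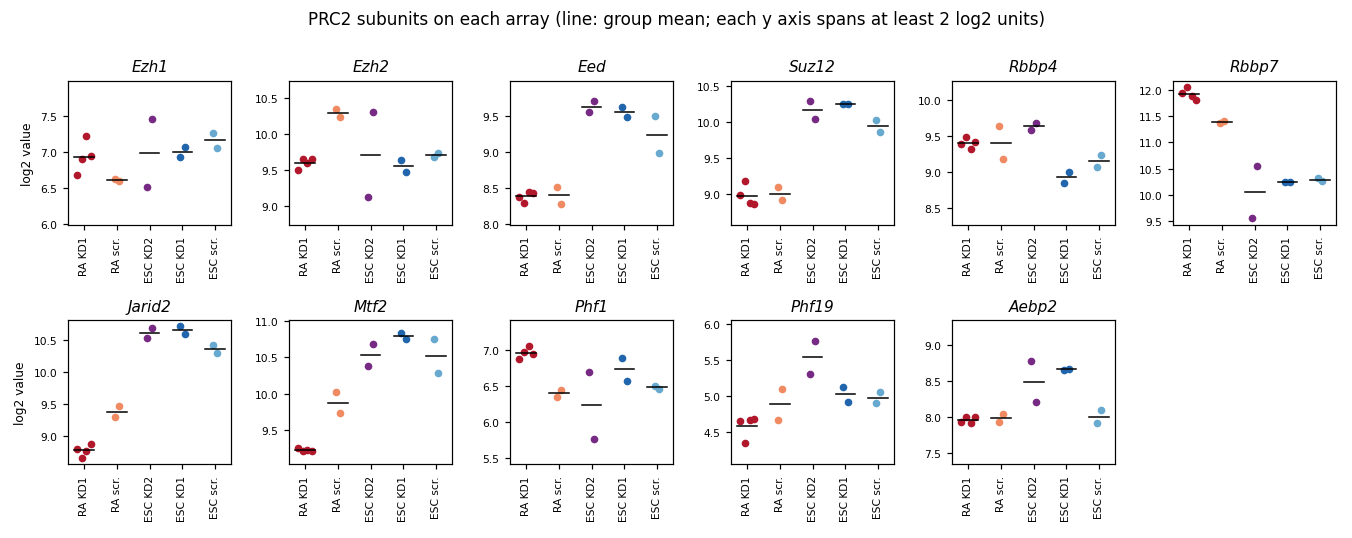
Log2 value of each of the 11 PRC2 members on each array (points) with the group mean (line), in the groups RA KD1, RA scrambled, ESC KD2, ESC KD1 and ESC scrambled from left to right. Suz12, Eed, Jarid2 and Mtf2 are low and Rbbp7 is high after retinoic acid, and the 2 ESC KD2 points of Ezh2 lie at 9.13 and 10.30.

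Both catalytic subunits of PRC1 rose on differentiation. Rnf2, the main ubiquitin ligase of ESCs, read 9.18, 9.15, 8.93 and 9.18 on the RA KD1 arrays, against 8.10 and 8.03 on the ESC KD1 arrays (1.05 ± 0.23, adjusted p = 0.00275). In scrambled cells Rnf2 read 9.39 and 9.20 after retinoic acid, against 7.61 and 7.63 in ESCs (1.68 ± 0.27, adjusted p = 0.000476). Ring1, its paralog, read 6.91, 6.81, 6.74 and 6.68 on the RA KD1 arrays, against 6.44 and 6.16 on the ESC KD1 arrays (0.49 ± 0.16, adjusted p = 0.0279). Its scrambled values were 6.63 and 6.66 after retinoic acid, against 5.84 and 6.26 in ESCs (0.60 ± 0.19, adjusted p = 0.027). The Ring1 arrays did not overlap in either line, but the calls were lost when ESC KD1 replicate 2 (adjusted p = 0.246), RA KD1 replicate 1 (0.065) or RA KD1 replicate 2 (0.0549) was left out in KD1 cells. In scrambled cells the same happened without ESC scrambled replicate 1 (0.224), RA scrambled replicate 1 (0.0913) or RA scrambled replicate 2 (0.112).

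The PCGF subunits, which decide which PRC1 assembly forms, moved in opposite directions. Bmi1 (Pcgf4), a canonical PRC1 subunit and repressor of the Cdkn2a locus, read 8.65, 8.89, 8.45 and 8.73 on the RA KD1 arrays, against 6.66 and 6.98 on the ESC KD1 arrays (1.86 ± 0.18, adjusted p = 7.6e-06). In scrambled cells Bmi1 read 8.92 and 8.78 after retinoic acid, against 6.64 and 7.18 in ESCs (1.94 ± 0.21, adjusted p = 3.04e-05). Its paralog in canonical PRC1, Pcgf2 (Mel18), read 6.82, 7.09, 6.89 and 6.96 on the RA KD1 arrays, against 7.53 and 7.40 on the ESC KD1 arrays (-0.53 ± 0.20, adjusted p = 0.0483). Pcgf2 read 7.26 and 6.91 on the RA scrambled arrays, against 7.25 and 7.30 on the ESC scrambled arrays. The KD1 call for Pcgf2 was lost in 10 of the 12 fits that left out 1 array (adjusted p up to 0.22, without ESC KD1 replicate 1), so the rise of Bmi1 had no firm counterpart in its closest paralog.

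Pcgf6, which belongs to a variant complex with L3MBTL2 and E2F6, fell in both lines. It read 7.71, 7.63, 7.34 and 7.46 on the RA KD1 arrays, against 8.41 and 8.45 on the ESC KD1 arrays (-0.90 ± 0.19, adjusted p = 0.00206). In scrambled cells it read 7.95 and 7.57 after retinoic acid, against 8.52 and 8.75 in ESCs (-0.87 ± 0.22, adjusted p = 0.00796), a call lost without ESC scrambled replicate 2 (adjusted p = 0.0636) or RA scrambled replicate 2 (0.0851). Pcgf3, which forms a variant complex closely related to that of Pcgf5, rose to 8.74, 8.85, 8.57 and 8.78 on the RA KD1 arrays, against 7.81 and 7.53 on the ESC KD1 arrays (1.07 ± 0.15, adjusted p = 9.54e-05). Its scrambled values were 8.36 and 8.60 after retinoic acid, against 7.58 and 7.74 in ESCs (0.82 ± 0.17, adjusted p = 0.00246). In both lines, then, Bmi1 and Pcgf3 were called higher and Pcgf6 lower.

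Pcgf5 stood out in KD1 cells. It read 9.88, 9.89, 9.57 and 9.75 on the RA KD1 arrays, against 6.76 and 6.23 on the ESC KD1 arrays (3.27 ± 0.26, a fold of 9.68, adjusted p = 1.98e-06). On the scrambled arrays Pcgf5 read 6.88 and 6.84 after retinoic acid, against 6.09 and 6.44 in ESCs (0.59 ± 0.31, adjusted p = 0.149, and 0.02 without the ESC KD2 arrays). The 4 RA KD1 arrays lay far above every other array of the series. Pcgf1, the partner of BCOR and KDM2B, overlapped between RA and ESC arrays in both lines, with 6.38 to 6.61 on the RA KD1 arrays, against 6.51 and 6.72 on the ESC KD1 arrays, and 6.53 and 7.01 on the RA scrambled arrays, against 6.33 and 6.86 on the ESC scrambled arrays.

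Among the CBX subunits, which bind trimethylated lysine 27, Cbx8 rose in both lines and Cbx2 in scrambled cells. Cbx8 read 6.47, 6.73, 6.77 and 6.51 on the RA KD1 arrays, against 5.10 and 4.87 on the ESC KD1 arrays (1.63 ± 0.17, adjusted p = 1.09e-05). The scrambled arrays of Cbx8 read 6.05 and 6.18 after retinoic acid, against 4.64 and 5.14 in ESCs (1.23 ± 0.19, adjusted p = 0.000432). Cbx2, whose human protein compacts chromatin, read 6.95, 7.13, 7.0 and 7.07 on the RA KD1 arrays, against 6.69 and 6.82 on the ESC KD1 arrays (0.28 ± 0.15, adjusted p = 0.135, and 0.0449 without the ESC KD2 arrays). Its scrambled values were 8.23 and 8.15 after retinoic acid, against 6.86 and 7.16 in ESCs (1.18 ± 0.17, adjusted p = 0.00026). Cbx2 on the differentiated KD1 arrays therefore lay within the range of the ESC scrambled arrays, while the RA scrambled arrays lay above all others.

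Cbx7, known as the main CBX of undifferentiated ESCs, showed no called change. It read 8.30, 8.31, 7.82 and 7.84 on the RA KD1 arrays, against 7.91 and 7.98 on the ESC KD1 arrays (0.12, 95% interval -0.31 to 0.56, adjusted p = 0.628). On the scrambled arrays Cbx7 read 8.06 and 8.10 after retinoic acid, against 8.17 and 8.11 in ESCs (-0.07, 95% interval -0.57 to 0.44, adjusted p = 0.854). The RA KD1 arrays fell into a higher pair, replicates 1 and 2, and a lower pair, replicates 3 and 4, on either side of the ESC KD1 arrays. Among the CBX genes, calls in both lines were thus limited to rises.

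The PHC and SCM subunits held the deepest fall in the list. Phc1, the Polyhomeotic homolog of ESCs, read 6.55, 6.82, 6.88 and 6.95 on the RA KD1 arrays, against 9.97 and 10.09 on the ESC KD1 arrays (-3.23 ± 0.15, a fold of 9.41, adjusted p = 6.48e-08). In scrambled cells it read 7.29 and 7.40 after retinoic acid, against 9.39 and 9.70 in ESCs (-2.20 ± 0.18, a fold of 4.60, adjusted p = 4.03e-06). All differentiated arrays lay below all undifferentiated ones. Phc2, its paralog, read 6.27, 6.22, 6.07 and 6.08 on the RA KD1 arrays, against 5.98 and 5.84 on the ESC KD1 arrays (0.25 with an adjusted p of 0.156). On the scrambled arrays Phc2 read 6.45 and 6.45 after retinoic acid, against 5.51 and 5.82 in ESCs (0.79 ± 0.16, adjusted p = 0.00248).

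A paralog switch is written here where 1 paralog was called higher and another lower in the same comparison. Phc1 and Phc2 met this rule in scrambled cells, and in KD1 cells Phc2 did not pass. The PCGF genes, and Rybp with Yaf2, met it in both lines. The rule rests on opposite calls only and does not show that 1 paralog took the place of another. The third paralog, Phc3, read 6.86, 6.95, 6.60 and 6.74 on the RA KD1 arrays, against 6.30 and 6.45 on the ESC KD1 arrays, and 6.48 and 6.43 on the RA scrambled arrays, against 6.25 and 5.77 on the ESC scrambled arrays. Neither difference passed, though both did without the ESC KD2 arrays (0.41 with an adjusted p of 0.0285 in KD1 cells, and 0.45 with 0.0417 in scrambled cells). The second Phc3 probe set, which was not tested, had larger differences, 1.26 in KD1 cells and 0.92 in scrambled cells. For Rybp the second probe set gave -0.40 in KD1 cells and -0.50 in scrambled cells. Scmh1, a Sex comb on midleg homolog that joins PHC proteins, read 6.54, 6.53, 6.47 and 6.62 on the RA KD1 arrays, against 5.13 and 5.21 on the ESC KD1 arrays (1.37 ± 0.16, adjusted p = 2.72e-05). In scrambled cells Scmh1 read 7.31 and 7.53 after retinoic acid, against 5.22 and 5.21 in ESCs (2.20 ± 0.18, adjusted p = 5.33e-06).

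The variant PRC1 subunits Rybp and Yaf2, which occupy the same site on RING1 proteins, moved in opposite directions. Yaf2 read 8.10, 8.58, 8.33 and 8.29 on the RA KD1 arrays, against 6.29 and 5.71 on the ESC KD1 arrays (2.32 ± 0.26, adjusted p = 2.28e-05). In scrambled cells it read 8.51 and 8.73 after retinoic acid, against 6.14 and 6.64 in ESCs (2.23 ± 0.30, adjusted p = 0.000157). Rybp read 8.04, 8.21, 7.87 and 7.71 on the RA KD1 arrays, against 8.41 and 8.53 on the ESC KD1 arrays (-0.51 ± 0.18, adjusted p = 0.0341). Its scrambled values were 7.86 and 7.46 after retinoic acid, against 8.42 and 8.31 in ESCs (-0.71 ± 0.21, adjusted p = 0.0189). The Rybp calls rested on single arrays, and in KD1 cells the call was lost without RA KD1 replicate 3 (adjusted p = 0.0715) or 4 (0.0827) or without ESC KD1 replicate 1 (0.0947) or 2 (0.186). In scrambled cells it was lost without RA scrambled replicate 2 (0.166) or ESC scrambled replicate 1 (0.0987) or 2 (0.0559).

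Kdm2b, the CpG-binding subunit that brings variant PRC1 to unmethylated CpG islands, rose in both lines. It read 8.22, 8.16, 7.99 and 8.11 on the RA KD1 arrays, against 7.16 and 7.23 on the ESC KD1 arrays (0.92 ± 0.18, adjusted p = 0.00125). Kdm2b on the scrambled arrays read 8.35 and 8.49 after retinoic acid, against 7.59 and 7.94 in ESCs (0.66 ± 0.21, adjusted p = 0.0267), a call lost without ESC scrambled replicate 1 (adjusted p = 0.195), RA scrambled replicate 1 (0.0676) or RA scrambled replicate 2 (0.14). L3mbtl2, an MBT-domain protein of the Pcgf6 complex, read 8.18, 8.19, 8.05 and 8.04 on the RA KD1 arrays, against 8.74 and 8.62 on the ESC KD1 arrays (-0.56 with an adjusted p of 0.13, and 0.00111 without the ESC KD2 arrays). On the scrambled arrays it read 8.14 and 7.87 after retinoic acid, against 8.99 and 8.85 in ESCs (-0.92 ± 0.34, adjusted p = 0.049). That call was lost in 10 of the 12 fits that left out 1 array (adjusted p up to 0.218, without RA scrambled replicate 2), and L3mbtl2 differed widely between the ESC KD2 arrays, at 7.86 and 9.30. Bcor, the corepressor of the Pcgf1 complex, read 5.93, 6.32, 5.96 and 5.97 on the RA KD1 arrays, against 5.88 and 6.49 on the ESC KD1 arrays, and 6.61 and 6.40 on the RA scrambled arrays, against 6.82 and 7.42 on the ESC scrambled arrays (-0.62 with an adjusted p of 0.0639 in scrambled cells, and 0.0448 without the ESC KD2 arrays).

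**Figure D3:**
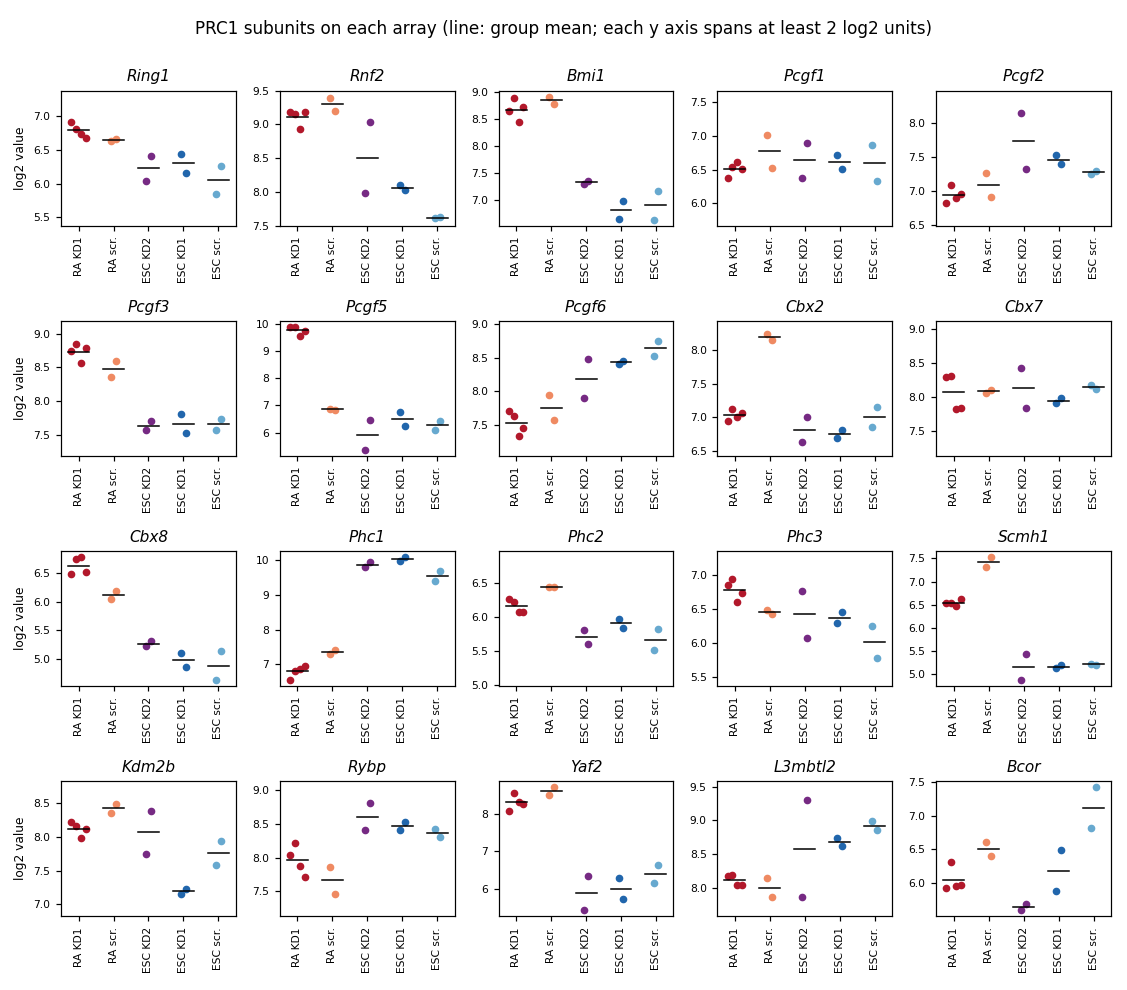
Log2 value of each of the 20 PRC1 members on each array (points) with the group mean (line), in the groups RA KD1, RA scrambled, ESC KD2, ESC KD1 and ESC scrambled from left to right. Bmi1, Yaf2 and Rnf2 are high and Phc1 low in both differentiated groups, Pcgf5 is high only on the 4 RA KD1 arrays, and Cbx2 only on the 2 RA scrambled arrays.

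Of the 8 paralog families in the list, 2 thus held members called in opposite directions in KD1 cells (the PCGF genes, and Rybp with Yaf2) and 3 in scrambled cells (these and the PHC genes). Without both ESC KD2 arrays such families numbered 3 in KD1 cells, with Phc3 higher and Phc1 lower added, and 4 in scrambled cells, with Ezh2 higher and Ezh1 lower added. With or without those arrays, no such pair was called on differentiation among Rbbp4 and Rbbp7, the Polycomb-like genes, Ring1 and Rnf2, or the CBX genes. With all arrays, 29.4% of all tested genes were called higher and 21.4% lower in KD1 cells, and 22.4% and 16.7% in scrambled cells. How often unrelated genes in sets of these sizes hold opposite calls was not tested, so the family counts describe only.

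After retinoic acid, KD1 and scrambled cells differed in 6 of the 31 members, 1 higher and 5 lower in KD1, where 22.7% of all tested genes were called, 11.2% higher and 11.5% lower. The share of members, 19.4%, is close to that background, and their median difference was -0.15, against -0.02 over all tested genes. This comparison uses the same arrays as the differentiation comparisons above, and the values on each array are those already given. Of the knockdown lines only KD1 was differentiated. The knockdown and other differences between the lines therefore cannot be told apart here or in the direct test below. Pcgf5 was higher in RA KD1 than in RA scrambled cells by 2.92 ± 0.26, a fold of 7.54 (adjusted p = 1.48e-05), and was called in every alternative fit. Cbx2 was lower on every RA KD1 array (-1.15 ± 0.15, adjusted p = 0.000192), likewise called in every alternative. The arrays of RA KD1 and RA scrambled did not overlap for 54.0% of all tested genes. The Scmh1 difference was -0.88 ± 0.16 (adjusted p = 0.00191).

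The other lower calls in RA KD1 cells were ESC-high subunits that fell on differentiation in both lines. Jarid2 differed by -0.61 ± 0.13 (adjusted p = 0.0055, and 0.081 without RA scrambled replicate 2), and Mtf2 by -0.65 ± 0.16 (adjusted p = 0.0115, and 0.157 without RA scrambled replicate 1). Phc1 differed by -0.55 ± 0.15 (adjusted p = 0.0228), a call lost without RA scrambled replicate 1 (0.0927), RA scrambled replicate 2 (0.172) or RA KD1 replicate 1 (0.0541). Ezh2 was lower on all 4 RA KD1 arrays than on both RA scrambled arrays, but the difference of -0.69 ± 0.24 did not pass (adjusted p = 0.0649). Without the ESC KD2 arrays 10 members were called, where 37.1% of all genes were, and the 4 added were Ezh2 (adjusted p = 0.000333), Phf1 (0.57, adjusted p = 0.00227), Rbbp7 (0.53, adjusted p = 0.00147) and Cbx8 (0.50, adjusted p = 0.0247). In that fit 2 paralog families held opposite calls, Phf1 higher with Mtf2 lower and Cbx8 higher with Cbx2 lower, against 0 with the ESC KD2 arrays.

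**Figure D4:**
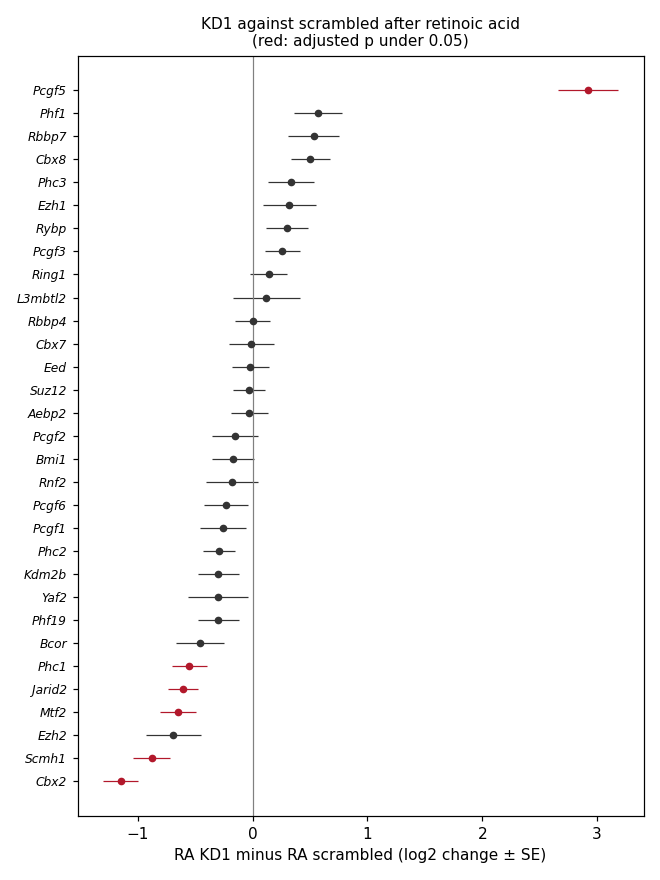
Difference between RA KD1 and RA scrambled cells for the 31 members (x axis, log2 change ± SE), sorted by size, with the 6 called members in red. Pcgf5 lies alone at 2.92, and the 5 members called lower lie between -0.55 and -1.15.

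The direct test of whether the differentiation change differed between KD1 and scrambled cells called 5 members, 1 with a more positive and 4 with a more negative change in KD1, where 7.88% of all genes were called, 4.27% more positive and 3.61% more negative. Pcgf5 had the largest such difference (2.68 ± 0.40, adjusted p = 0.00211) and kept its call in every alternative fit. Jarid2 (-0.90 ± 0.20, adjusted p = 0.0169), Mtf2 (-0.93 ± 0.24, adjusted p = 0.0387) and Phc1 (-1.03 ± 0.23, adjusted p = 0.0194) fell further in KD1 cells, and Cbx2 rose less (-0.90 ± 0.23, adjusted p = 0.0333). Each of these 4 calls was lost when some single arrays were left out: Mtf2 and Cbx2 in 9 of the 12 such fits (adjusted p up to 0.164 without RA scrambled replicate 1 and 0.142 without ESC KD1 replicate 2), Phc1 in 5 (up to 0.0905 without ESC KD1 replicate 2) and Jarid2 in 4 (up to 0.087 without RA scrambled replicate 2). Scmh1 rose less in KD1 cells by a margin that did not pass (-0.83 ± 0.24, adjusted p = 0.0588). Without either or both of the ESC KD2 arrays 10 members were called, where 18.5% of all genes were, and the added ones were Aebp2, Ezh2, Rbbp7, Rnf2 and Scmh1.

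Markers of cell types also differed between RA KD1 and RA scrambled cells. Of the 12 ESC markers tested 5 were higher and 1 lower in RA KD1, with a median difference of 0.45. Their mean level was 6.35 to 7.32 on the RA KD1 arrays, against 6.59 to 6.61 on the RA scrambled arrays. All 19 extraembryonic endoderm markers tested were higher in RA KD1 than in RA scrambled cells, and the mean level over the 20 measured was 9.42 to 9.91 on the RA KD1 arrays, against 7.21 to 7.27 on the RA scrambled arrays. Of 18 fibroblast and feeder markers 8 were lower and 0 higher, and the mean level over the 19 measured was 6.28 to 6.65 on the RA KD1 arrays, against 7.17 to 7.47 on the RA scrambled arrays. Of the 11 retinoic acid response genes 8 were lower, with mean levels of 7.62 to 8.19 on the RA KD1 arrays, against 8.98 to 9.03 on the RA scrambled arrays. Of 14 proliferation genes 3 were lower and 0 higher. Over all tested genes 11.2% were called higher and 11.5% lower. A marker dim elsewhere could pass the filter on dim genes only through the group where it is high, so these counts describe and carry no support. The part of these markers in the changes of Pcgf5, Cbx2, Scmh1, Jarid2, Mtf2 and Phc1 was not tested.

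In undifferentiated cells few Polycomb members were called. Between ESC KD1 and ESC scrambled cells limma called 0 of 31, where 2.32% of all genes were called (0.909% higher and 1.41% lower), and 4 members had an unadjusted p under 0.05 (Aebp2, Bcor, Kdm2b and Phc1). Bcor read 5.88 and 6.49 on the ESC KD1 arrays, against 6.82 and 7.42 on the ESC scrambled arrays (-0.94, adjusted p = 0.0742), Aebp2 read 8.66 and 8.67, against 7.92 and 8.10 (0.65, adjusted p = 0.0987), and Kdm2b read 7.16 and 7.23, against 7.59 and 7.94 (-0.57, adjusted p = 0.243). Without both ESC KD2 arrays, or without either of them, these 3 were called (adjusted p = 0.0339 for Bcor, 0.00565 for Aebp2 and 0.0309 for Kdm2b), where 8.14% of all genes were. Phc1 read 9.97 and 10.09 on the ESC KD1 arrays, against 9.39 and 9.70 on the ESC scrambled arrays (0.49, adjusted p = 0.234). Markers of cell types also differed between these groups. Of the 19 extraembryonic endoderm markers tested 6 were higher in ESC KD1 than in ESC scrambled cells, Srgn by 2.77 ± 0.29 (adjusted p = 0.000843) among them, and the mean over the 20 measured was 6.76 to 6.87 on the ESC KD1 arrays, against 6.10 to 6.11 on the ESC scrambled arrays. Of the 12 ESC markers 2 were higher, Klf4 and Tbx3. Of the 18 fibroblast and feeder markers 1 was lower, with a median difference of -0.58. The part of these markers in the values of Bcor, Aebp2, Kdm2b and Phc1 was not tested.

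The ESC KD2 arrays gave 1 call against ESC scrambled, where 10.0% of all genes were called, 2.88% higher and 7.15% lower. Bcor read 5.60 and 5.69 on the arrays labelled ESC KD2, against 6.82 and 7.42 on the ESC scrambled arrays (-1.48 ± 0.24, adjusted p = 0.00365, and 0.0504 without ESC scrambled replicate 2), and both arrays lay below the ESC scrambled ones. The arrays of ESC KD2 and ESC scrambled did not overlap for 40.6% of all tested genes. Several members other than Bcor had unlike values on the 2 ESC KD2 arrays. Ezh2 read 9.13 and 10.30, Rnf2 7.98 and 9.04, Rbbp7 9.55 and 10.54, and Pcgf5 5.37 and 6.47 on replicates 1 and 2. Each fit that leaves out 1 ESC KD2 array compares a single array, which is assumed to vary like the arrays of the other groups. With ESC KD2 replicate 1 left out, 7 members were called against scrambled, where 34.4% of all genes were, among them Rnf2 (1.42, adjusted p = 0.000248), Bcor (-1.43, adjusted p = 0.00389) and Ezh2 (0.59, adjusted p = 0.00833). With ESC KD2 replicate 2 left out, 11 were called, where 30.5% of all genes were, among them Bcor (-1.52, adjusted p = 0.00344) and Ezh2 with the opposite sign (-0.58, adjusted p = 0.0109). Bcor and Ezh2 were the only members called against scrambled with either array alone. Beside these values, 2 extraembryonic endoderm markers were lower and 3 ESC markers higher in the ESC KD2 than in the ESC scrambled group, 3 fibroblast and feeder markers were lower (median difference over the list -0.61), and their part in the results was not tested.

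Between the knockdown lines 1 member was called, where 2.7% of all genes were, 0.508% higher and 2.19% lower. Kdm2b read 7.75 and 8.39 on the arrays labelled ESC KD2, against 7.16 and 7.23 on the ESC KD1 arrays (0.88 ± 0.21, adjusted p = 0.0495). This call was lost in 10 of the 12 fits that left out 1 array (adjusted p up to 0.288, without ESC KD1 replicate 1). With ESC KD2 replicate 1 left out 8 members were called, where 35.0% of all genes were, and with replicate 2 left out 6 were, where 16.1% were.

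Genes that work with these complexes were read from lists beside the members. Of 24 tested partners of PRC1 and PRC2, 9 rose and 6 fell on differentiation in KD1 cells, and 7 rose and 4 fell in scrambled cells, with median changes of 0.30 and 0.21. These are 62.5% and 45.8% of the partners, near the 50.8% and 39.1% of all genes called in KD1 and in scrambled cells. L3mbtl3, an MBT-domain relative of L3mbtl2, rose by 3.53 ± 0.17 in KD1 cells and by 1.54 ± 0.20 in scrambled cells (adjusted p = 7.32e-08 and 0.000123), and its change differed between the lines (1.99 ± 0.27, adjusted p = 0.000948). E2f6, the DNA-binding partner of Pcgf6, rose by 1.48 ± 0.22 in KD1 cells and 1.31 ± 0.25 in scrambled cells (adjusted p = 0.000178 and 0.00177), while Pcgf6 and, in scrambled cells, L3mbtl2 of the same complex fell. Dcaf7, a partner of the Pcgf3 and Pcgf5 complexes, rose by 1.36 ± 0.24 in KD1 cells and 1.82 ± 0.28 in scrambled cells (adjusted p = 0.000699 and 0.000394). In RA KD1 against RA scrambled cells 3 partners were higher and 3 lower, which is 25.0%, near the 22.7% of all genes called. The higher ones included L3mbtl3 (1.56 ± 0.17, adjusted p = 7.27e-05) and Epop (1.04 ± 0.17, adjusted p = 0.000906), a PRC2 accessory factor. The lower ones included Hdac2 (-1.46 ± 0.24, adjusted p = 0.0012) and Auts2 (-1.0 ± 0.20, adjusted p = 0.00372), a partner of Pcgf3 and Pcgf5.

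Enzymes that oppose Polycomb marks were also measured. Of 10 tested genes of the H2A deubiquitinase complex around BAP1, 3 rose and 3 fell in KD1 cells and 2 rose and 3 fell in scrambled cells (medians 0.23 and 0.36). These 6 and 5 of 10 stand beside 50.8% and 39.1% of all genes called. The genes called in both lines included Asxl1 (-1.30 ± 0.15, against -1.10 ± 0.18) and Asxl2 (-1.20 ± 0.26, against -1.44 ± 0.30), lower in KD1 and in scrambled cells. Kdm6b (Jmjd3), a lysine 27 demethylase, rose by 0.74 ± 0.14 in KD1 cells and 1.22 ± 0.17 in scrambled cells (adjusted p = 0.00119 and 0.000163). Its paralog Kdm6a (Utx) changed by -0.65 ± 0.13 in KD1 cells and -0.65 ± 0.15 in scrambled cells (adjusted p = 0.00126 and 0.00447). Of 13 tested trithorax-group genes, 2 rose and 5 fell in KD1 cells and 1 rose and 4 fell in scrambled cells (medians -0.40 and -0.06), which is 53.8% and 38.5%, near the shares over all genes.

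Known Polycomb targets were read last. Of 38 listed developmental and cell cycle regulators 36 were measured and 26 passed the filter on dim genes, which a gene silent in ESCs could pass only through the group where it is high, so their counts describe and carry no support. Among them 18 rose and 1 fell in each line, where 29.4% of all genes rose in KD1 cells and 22.4% in scrambled cells, with medians of 0.76 in KD1 cells and 1.12 in scrambled cells. After retinoic acid 6 of the 26 were higher and 9 lower in KD1 than in scrambled cells, 57.7% of those tested. Over all tested genes 22.7% were called, 11.2% higher and 11.5% lower. Gata4, an endoderm regulator, ranged from 10.45 to 11.05 on the RA KD1 arrays, against 6.30 to 6.47 on the RA scrambled arrays (4.34 ± 0.17, adjusted p = 4.92e-08), and Sox17 ranged from 8.56 to 9.23, against 5.46 to 5.88 (3.29 ± 0.21, adjusted p = 8.39e-07). Cdkn2a, the locus that Bmi1 is known to repress, chosen after its values were seen, ranged from 6.53 to 7.07 on the RA KD1 arrays, against 5.09 to 5.16 on the ESC KD1 arrays, and from 6.87 to 7.12 on the RA scrambled arrays, against 5.22 to 5.37 on the ESC scrambled arrays, so it and Bmi1 were both higher in differentiated cells.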

How the data were processed

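The authors deposited log2 probe set values, and RMA is the only tool named, per the submitters' processing notes; no version or annotation is stated with it. Array medians ran from 4.73 to 5.09 and no rescaling was applied. Of 35556 probe sets 21789 had 1 gene symbol, 1621 several, and 12146 were not listed. The highest-mean probe set was used for each of 19938 genes, and genes above percentile 40 on at least 2 arrays were tested (12988).

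Groups follow the sample titles. limma 3.58.1 (R 4.3.3) modelled the 5 group means over the 12 arrays (eBayes, 7 contrasts, two-sided, Benjamini-Hochberg over all tested genes in a contrast, threshold 0.05). The fit was tested on simulated data. Every member is named; of each other list, up to 4 genes per comparison could be named, the called ones with the largest change and no overlap between arrays, and Cdkn2a falls outside that rule. Members and lists were chosen with earlier results of these data known. Alternatives were other filters, cyclic loess, centring on the median of the named genes, an intensity trend, array weights, subsets of arrays, averaged probe sets, stricter thresholds, a replicate block and leaving out each array. The few arrays per group limit the precision. Promoters came from RefSeq (GRCm38.p6). Replicate numbers were not used to pair the samples: 3 of 20 same-number pairs correlated above 0.1 (range -0.183 to 0.243). Between groups of 2 arrays both numbers give the same value, so these pairs are not separate checks. The highest, 0.243, was between ESC KD1 and ESC scrambled, and whether those arrays are paired is not settled.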

Additional observations from a re-analysis of the deposited data

Results flagged for a closer look

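In the RA KD1 group, 3 of the 31 members had 1 array far from the other 3, judged by its gap to the nearest array over the group's range (Dixon's 95% limit for 4 arrays). About 1 in 20 such groups is picked out by chance. Phf19 read 4.34 on replicate 2, against 4.65 to 4.68 on the others (ratio 0.925). Rnf2 read 8.93 on replicate 3, against 9.15 to 9.18 (ratio 0.854), and Bcor read 6.32 on replicate 2, against 5.93 to 5.97 (ratio 0.891).

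For 5 members the change on differentiation differed between KD1 and scrambled cells by the interaction term in limma. The difference was 2.68 for Pcgf5 (adjusted p = 0.00211), -1.03 for Phc1 (0.0194), -0.90 for Jarid2 (0.0169), -0.93 for Mtf2 (0.0387) and -0.90 for Cbx2 (0.0333).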

How the results depend on the processing

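Of 52 called changes of single members, 24 passed in every alternative and 0 reversed. Among uncalled values, the Cbx7 change in KD1 cells turned to -0.04 under cyclic loess and -0.11 with RA KD1 replicates 3 and 4 alone. On differentiation, 13 members in KD1 cells and 8 in scrambled cells passed with at least a 2-fold change; leaving out 1 array gave 16 to 24 and 13 to 24 calls. For RA KD1 against RA scrambled, 11 were called with array weights and with only the arrays compared, 10 without both KD2 arrays, 2 with a 2-fold minimum, and 4 to 10 leaving out 1 array. The interaction gave 10 calls with array weights, with only the arrays compared and without both KD2 arrays, 1 at an adjusted p under 0.01, 2 with a 2-fold minimum, 2 with RA KD1 replicates 1 and 2 alone, 1 with replicates 3 and 4 alone, and 1 to 10 leaving out 1 array. In ESCs, KD1 against scrambled gave 3 calls with array weights and without both KD2 arrays (0 to 3 leaving out 1 array). KD2 against scrambled gave 2 under cyclic loess and median centring, 0 with array weights and with only the arrays compared, and 0 to 11 leaving out 1 array. KD2 against KD1 gave 0 with an intensity trend, array weights, only the arrays compared, either stricter threshold or either pair of RA KD1 replicates, and 0 to 8 leaving out 1 array; over all genes its split went to 48 higher and 108 lower under cyclic loess, against 66 and 285. The replicate block gave 2 interaction calls and 0 for KD2 against KD1, and whether the replicate numbers pair these samples is not settled. Counts over all 12988 tested genes shifted as well. For RA KD1 against RA scrambled 2942 were called in the fit used above. There were 4988 with array weights, 4734 with only the arrays compared, 4821 without both KD2 arrays and 1200 with a 2-fold minimum. The interaction called 1024 in the fit used above, and 2548, 2399, 2399 and 853 in the same alternatives. On differentiation 3056 in KD1 cells and 2645 in scrambled cells passed with at least a 2-fold change. The cause of these shifts was not tested. With 2 arrays in most groups, differences near 0.6 sit close to the limit of what is called.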
